A study of Homo sapiens with 4 samples.

Results

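The MAP kinase phosphatases and the Sprouty and Spred proteins are the brakes that cells build when MAP kinase signalling is active. The 10 genes described here were chosen by name, with earlier results of these data known, out of 58812 genes listed. They are the dual-specificity phosphatase genes DUSP1, DUSP4, DUSP5, DUSP6, DUSP8, DUSP10 and DUSP16 and the inhibitor genes SPRY2, SPRY4 and SPRED2. All 10 were found in the data and all 10 passed the filter on low counts. RNA was sequenced from A549 cells, an established lung carcinoma line of epithelial origin. One group (2 libraries) had received 1 µg of the empty plasmid pCMV6-Entry and the other (2 libraries) 1 µg of a plasmid for SAMD9 fused to a Myc-DDK tag, each for 24 hr in wild type cells. Both groups were therefore transfected, and the share of cells that took up plasmid is not given in the sources used here.

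MAP kinase phosphatases remove phosphate from both the threonine and the tyrosine of the activation loop of a MAP kinase, which switches the kinase off. The nuclear, inducible enzymes (DUSP1, DUSP4, DUSP5) are made within minutes to hours of a stimulus, DUSP6 and its relatives act on ERK in the cytoplasm, and DUSP8, DUSP10 and DUSP16 prefer the stress kinases JNK and p38. Sprouty and Spred proteins act further upstream and dampen the signal between growth factor receptors, Ras and Raf. Many of these genes are themselves switched on by ERK, so their RNAs are widely read as markers of that feedback, also in lung cancer cells.

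Library totals lay between 29301854 and 39670083 counts. SAMD9, an interferon-inducible gene, was at 444 and 400 counts in the empty vector libraries against 220123 and 184350 in the SAMD9 libraries, as labelled. The epithelial keratin genes KRT7, KRT8 and KRT18 were abundant, and the 8 lung epithelium markers summed to between 6278 and 8102 CPM (counts scaled for library size and, by TMM, for composition), although the keratin gene KRT19 and the alveolar and lung identity genes SFTPC and NKX2-1 had at most 10 counts in a library. The 6 fibroblast markers summed to 1.79 and 2.84 CPM with empty vector and 6.33 and 6.39 with SAMD9, the 6 leukocyte markers to between 2.06 and 3.19, and the 6 endothelial markers to between 1.13 and 1.53. Most of the fibroblast sum was COL1A1, which was called higher, at 1.44 and 2.09 CPM with empty vector and 5.20 and 5.59 with SAMD9 (3.04-fold, edgeR adjusted p = 3.6e-05). The epithelial markers KRT8 (1.32-fold, edgeR adjusted p = 9.7e-07) and CDH1 (1.85-fold, edgeR adjusted p = 5.0e-09) were also called higher. KRT7, KRT18 and EPCAM were not called, and EPCAM was at 5.55 to 6.90 CPM. The fibroblast marker DCN was at 0 counts in all 4 libraries, the part of these cell types in the results was not tested, and in bulk RNA fewer cells of a type and less RNA per cell cannot be told apart.

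Promoter sequence was at hand for 8 of the 10 genes (RefSeq, GRCh38.p14), all but DUSP4 and DUSP5. The 250 bases before 1 annotated transcription start per gene, that nearest the counted gene's start, were searched on both strands for 6 motifs. SPRY2 had 3 such entries and DUSP10 and SPRED2 had 2 each. The windows of DUSP6 (89352502 to 89352751) and SPRY4 (142324248 to 142324497) lay inside the counted gene spans. DUSP1 and DUSP8 are shown because no other of the 8 held a match, and DUSP16, the gene with the largest rise among the 8, is shown for comparison. Capitals mark the cAMP response element TGACGTCA, a palindrome that reads the same on both strands, and each sequence runs 5′ to 3′ along the gene's minus strand.
DUSP1 (chr5:172771196-172771445): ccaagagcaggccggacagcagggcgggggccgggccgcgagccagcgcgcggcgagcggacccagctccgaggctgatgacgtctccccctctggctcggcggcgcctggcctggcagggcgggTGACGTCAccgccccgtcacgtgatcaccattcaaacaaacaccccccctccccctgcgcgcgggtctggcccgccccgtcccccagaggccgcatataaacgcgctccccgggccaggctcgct
DUSP8 (chr11:1572272-1572521): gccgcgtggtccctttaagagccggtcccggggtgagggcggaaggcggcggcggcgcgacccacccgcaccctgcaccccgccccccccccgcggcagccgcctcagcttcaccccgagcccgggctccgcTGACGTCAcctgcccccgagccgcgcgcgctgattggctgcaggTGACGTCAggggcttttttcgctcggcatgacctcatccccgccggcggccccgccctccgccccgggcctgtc
DUSP16 (chr12:12562864-12563113): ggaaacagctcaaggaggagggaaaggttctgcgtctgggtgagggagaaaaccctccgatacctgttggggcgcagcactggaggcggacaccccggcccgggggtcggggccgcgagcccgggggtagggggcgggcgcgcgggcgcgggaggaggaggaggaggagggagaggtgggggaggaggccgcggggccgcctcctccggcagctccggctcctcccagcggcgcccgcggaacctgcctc
DUSP1 held 1 copy, at -125 to -118 from the start, and DUSP8 held 2, at -118 to -111 and at -74 to -67. This motif occurs in 1.65% of 35116 promoter windows of that length. None of the 8 windows matched the AP-1 site TGANTCA (6.57% of all windows), the serum response element (1.16%), the NF-kB consensus (5.21%), the interferon-stimulated response element (TTTC, any 2 bases and TTTC again, 3.02%) or the ETS site CCGGAAGT (3.42%). No match says only that these letters are absent from this window. GC content was 74.4% for DUSP1, 76.8% for DUSP8 and 74.8% for DUSP16, against a median of 58% over all windows.

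With SAMD9, 7 of the 10 genes rose, 1 fell and 2 were not called. DUSP5, DUSP16 and DUSP10 rose most, by 2.30-fold, 1.76-fold and 1.68-fold, whereas DUSP6, the ERK phosphatase of the cytoplasm, fell to 0.687 of its empty vector level. A gene was called where edgeR's quasi-likelihood test gave a p below 0.05 after Benjamini-Hochberg adjustment across the 19814 genes tested. Of all genes tested, 27.5% were called, 15.3% higher and 12.2% lower. The median log2 fold change was 0.50 over the 10 genes and -0.01 over all genes tested. The 10 leave out the close relatives DUSP7 and SPRED1, which were called lower (log2 fold change -0.91 and -0.40). Both SAMD9 libraries lay above both empty vector libraries for 8 of the 10 genes, as for 31.1% of all genes, and below them for the other two, as for 30.9%.

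**Figure D1:**
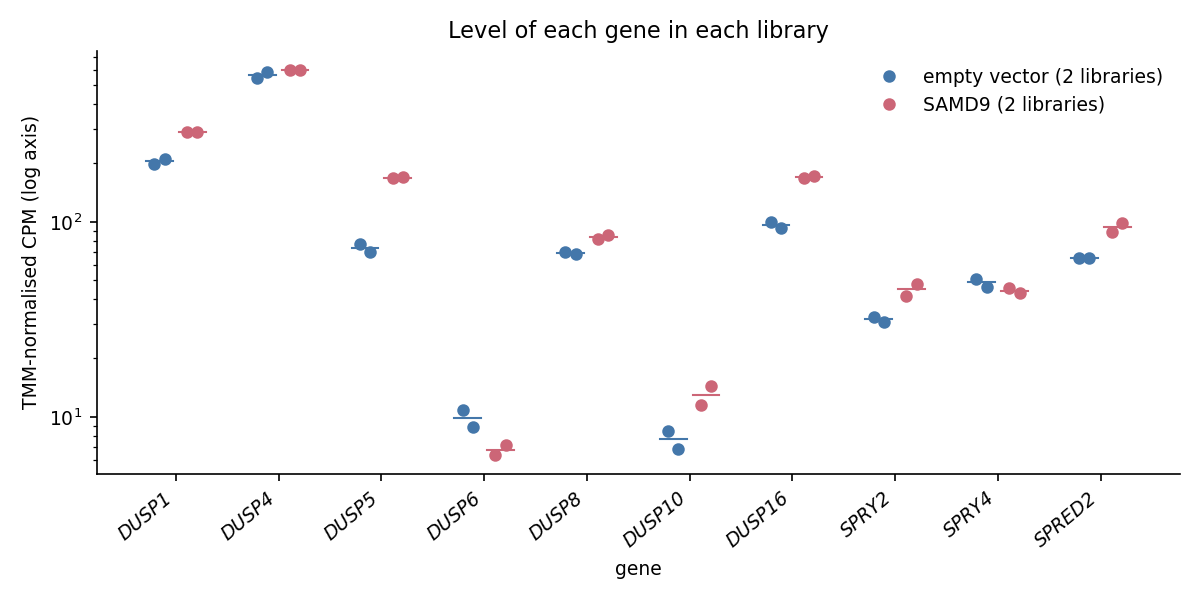
TMM-normalised CPM on a log axis for the 10 genes, with 1 point per library (2 empty vector libraries in blue, 2 SAMD9 libraries in red) and a line at each group mean. The groups are clearly apart for DUSP5 and DUSP16, and close together for DUSP4 and SPRY4.

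Among the nuclear inducible enzymes, DUSP5 changed most. DUSP5, which inactivates ERK in the nucleus (ENSG00000138166, chromosome 10, 110497838 to 110511544, plus strand, GRCh38), had 76.7 and 70.0 CPM in the empty vector libraries and 168 and 169 CPM in the SAMD9 libraries. Both SAMD9 libraries stood at more than 2 times either control, with little spread between them. DUSP5 rose by 1.20 on the log2 scale (SE 0.07, n = 2 per group, edgeR adjusted p = 2.6e-12), with a 95% interval from 1.06 to 1.34.

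DUSP1, also known as MKP-1, acts on p38, JNK and ERK and restrains inflammatory gene expression (ENSG00000120129, chromosome 5, 172768090 to 172771195, minus strand). It had 198.5 and 209.5 CPM with empty vector and 287 and 289 CPM with SAMD9. The groups did not overlap, and the difference of the means exceeded the SD of either group (204 ± 7.78 against 288 ± 1.45 CPM, SD, n = 2). Its log2 fold change was 0.50 (SE 0.06, edgeR adjusted p = 6.7e-07).

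DUSP4, a nuclear phosphatase of ERK and JNK (ENSG00000120875, chromosome 8, 29333064 to 29350668, minus strand), had 548 and 589 CPM with empty vector and 600.1 and 597 CPM with SAMD9. Both SAMD9 libraries were above both controls, but by less than the controls differed from each other. Its difference of 0.07 on the log2 scale (SE 0.06, edgeR adjusted p = 0.363) was not called, with a 95% interval from -0.04 to 0.19. Under total-count scaling the value of DUSP4 turned to -0.11 (adjusted p = 0.107), and without empty vector replicate 2 it was called higher at 0.13 (adjusted p = 0.0348).

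DUSP6, which holds ERK in the cytoplasm and dephosphorylates it (ENSG00000139318, chromosome 12, 89347232 to 89353271, minus strand), was the only one of the 10 genes called lower. It had 337 and 298 counts, or 10.8 and 8.90 CPM, with empty vector and 238 and 205 counts, or 6.38 and 7.16 CPM, with SAMD9. The groups did not overlap, although the gap between the lower control and the higher SAMD9 library was about as wide as the spread of the control group. DUSP6 fell by 0.54 on the log2 scale (SE 0.16, edgeR adjusted p = 0.0162), with a 95% interval of the log2 fold change from -0.88 to -0.20. The call was lost with DESeq2 (adjusted p = 0.0922), on leaving out empty vector replicate 1 (0.141) and on leaving out SAMD9 replicate 1 (0.118), and the change stayed negative in each of the 8 alternatives, from -0.73 to -0.40. Because both SAMD9 libraries were below both controls, leaving out a library could hardly turn that sign. An antisense gene (ENSG00000274021) shares 1875 exonic bases with DUSP6, 40.5% of its exons. That gene had 0, 10, 2 and 2 counts, and how reads in the shared bases were assigned is not given in the sources used here, so the level of DUSP6 is uncertain.

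All 3 phosphatase genes with a preference for the stress kinases were called higher, as were 15.3% of all genes tested. The call of DUSP8 did not hold in every alternative. DUSP16, which binds and inactivates JNK (ENSG00000111266, chromosome 12, 12474210 to 12562383, minus strand), had 100.2 and 92.5 CPM with empty vector and 167 and 172 CPM with SAMD9. Its groups were far apart compared with their spread, and the log2 fold change was 0.81 (SE 0.07, edgeR adjusted p = 1.5e-09). DUSP10, also known as MKP-5 and active on p38 and JNK (ENSG00000143507, chromosome 1, 221701420 to 221742176, minus strand), had 266 and 230 counts, or 8.50 and 6.87 CPM, with empty vector. With SAMD9 it had 430 and 410 counts, or 11.5 and 14.3 CPM. Both SAMD9 libraries were above both controls, but each group spread by more than 1 CPM, and the rise of 0.75 on the log2 scale (SE 0.16, edgeR adjusted p = 0.00093) had a 95% interval from 0.42 to 1.07.

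DUSP8, another phosphatase of JNK and p38 (ENSG00000184545, chromosome 11, 1554044 to 1571920, minus strand), had 69.8 and 68.3 CPM with empty vector and 81.6 and 85.6 CPM with SAMD9. The groups did not overlap, and this was the smallest of the 7 rises, at 0.28 on the log2 scale (SE 0.07, edgeR adjusted p = 0.0055). Its call was lost under total-count scaling, where the value of DUSP8 was 0.09 (adjusted p = 0.375), and without SAMD9 replicate 2 (0.25, adjusted p = 0.103). Its span also holds part of KRTAP5-AS1 on the opposite strand (165 to 224 counts), with no exonic base in common.

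The Sprouty and Spred genes were divided. SPRED2, which blocks the activation of Raf (ENSG00000198369, chromosome 2, 65310851 to 65432637, minus strand), had 65.2 and 64.8 CPM with empty vector and 88.9 and 99.0 CPM with SAMD9. The controls were nearly equal and both SAMD9 libraries were above them, and the rise was 0.53 on the log2 scale (SE 0.07, edgeR adjusted p = 6.7e-06). SPRY2, an inhibitor of growth factor receptor signalling to Ras (ENSG00000136158, chromosome 13, 80335976 to 80340951, minus strand), had 32.5 and 30.6 CPM with empty vector and 41.7 and 48.2 CPM with SAMD9. Its groups did not overlap, and the log2 fold change was 0.51 (SE 0.09, edgeR adjusted p = 0.00022).

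SPRY4, a close relative of SPRY2 (ENSG00000187678, chromosome 5, 142310427 to 142326455, minus strand), was at 51.1 and 46.5 CPM with empty vector and 45.5 and 43.1 CPM with SAMD9. The lower control and the higher SAMD9 library were about 1 CPM apart, closer than the libraries within either group. Its difference of -0.14 on the log2 scale (SE 0.08, edgeR adjusted p = 0.258) was not called and had a 95% interval from -0.31 to 0.04. Under total-count scaling SPRY4 was called lower, at -0.33 (adjusted p = 0.00415). That scaling lowered the median of all genes by 0.19 (a shift of -0.19 on the log2 scale) and the share of calls that were higher from 55.7% to 25.9%.

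**Figure D2:**
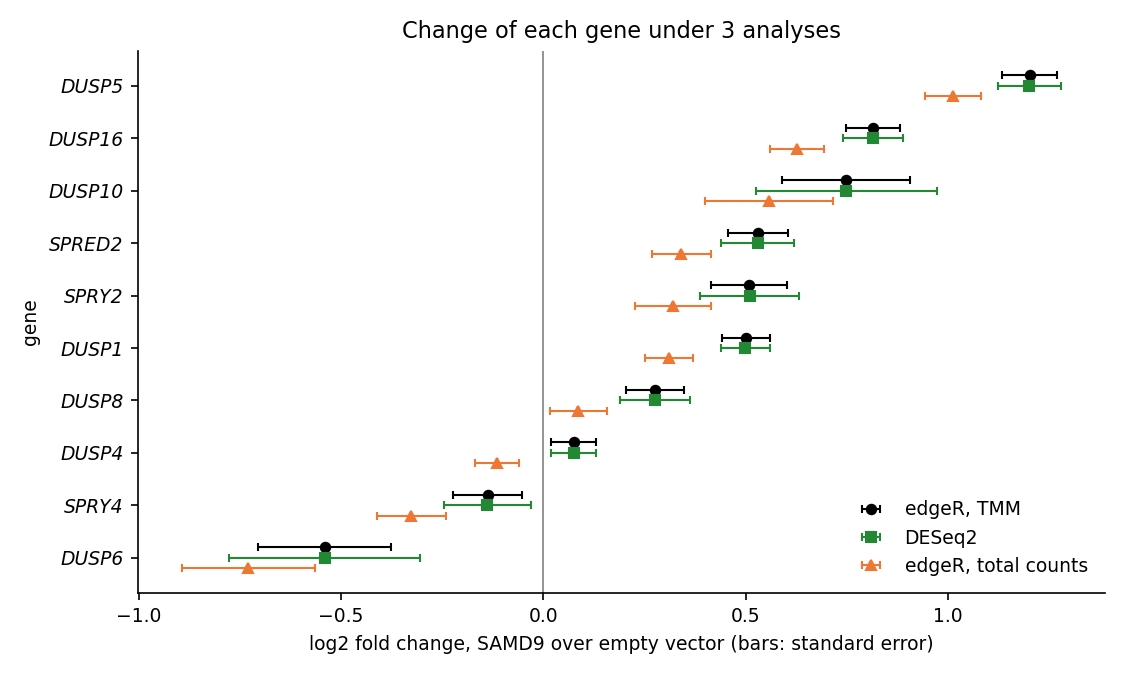
Log2 fold change of SAMD9 over empty vector for each of the 10 genes with its standard error, from edgeR with TMM (black), DESeq2 (green) and edgeR with total-count scaling (orange), each on 2 against 2 libraries. DUSP5 is highest and DUSP6 lowest in all 3 analyses, and DUSP4 lies above 0 in 2 of them and below 0 with total-count scaling.

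The 10 genes also differed widely in abundance, compared here as TMM-normalised CPM per kilobase of exon. With empty vector, DUSP1 was highest at 101 ± 3.86 (SD, n = 2), followed by DUSP4 at 78.3 ± 3.97, DUSP5 at 28.0 ± 1.81, DUSP16 at 16.8 ± 0.961 and DUSP8 at 14.96 ± 0.224. SPRED2 (12.6 ± 0.0495), SPRY2 (10.4 ± 0.458) and SPRY4 (8.23 ± 0.554) came next, and DUSP10 (2.21 ± 0.331) and DUSP6 (2.12 ± 0.285) were lowest and did not differ beyond their spread. Dividing all counts of DUSP6 by only its unshared exonic length put it at 3.57 ± 0.479, above DUSP10 in both libraries. That length leaves out the bases shared with the antisense gene, so the value assumes that no counted read lay in them. With SAMD9, DUSP1, DUSP4, DUSP5 and DUSP16 were again the highest, in that order, at 143 ± 0.718, 82.5 ± 0.281, 64.5 ± 0.444 and 29.6 ± 0.588. SPRED2 (18.2 ± 1.38) and DUSP8 (18.1 ± 0.613) were then alike within their spread. DUSP10 (3.72 ± 0.567) stood above DUSP6 (1.46 ± 0.119, or 2.46 ± 0.200 with all its counts divided by its unshared length).

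Ratios within a library do not depend on how libraries are scaled, so they show unequal change directly. DUSP5 was 12.6 and 13.9 times as abundant per kilobase as DUSP6 in the empty vector libraries and 46.6 and 41.9 times in the SAMD9 libraries. The groups were far apart compared with their spread. By the unshared length of DUSP6 these ratios were 7.51 and 8.29 with empty vector and 27.7 and 24.9 with SAMD9. Changing the length multiplies the ratio alike in every library, so the second set adds no test of the separation. The ratio of DUSP10 to DUSP6 went from 1.05 and 1.03 to 2.41 and 2.66, or from 0.626 and 0.612 to 1.43 and 1.59 by the unshared length. The ratio of DUSP16 to DUSP8 went from 1.16 and 1.09 to 1.65 and 1.62. For DUSP1 over DUSP4 it went from 1.30 and 1.28 to 1.72 and 1.74. All of these ratios separated the groups, but an exact permutation test of 2 against 2 libraries cannot give a two-sided p below 0.333. In both SAMD9 libraries DUSP5 and DUSP10 were above both controls and DUSP6 below them. The ratios of DUSP5 and DUSP10 to DUSP6 therefore had to separate the groups and add no evidence to those values.

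The summed level of the 10 catalytically active MAP kinase phosphatase genes (the 7 described with DUSP2, DUSP7 and DUSP9) was 244 and 250.05 CPM per kilobase with empty vector and 343 and 347 with SAMD9. The nuclear enzymes held 83.3% and 84.7% of that sum with empty vector and 84.4% and 83.8% with SAMD9, so their joint share overlapped between the groups. Within it, DUSP4 went from 31.0% and 32.5% to 24.1% and 23.7%, and DUSP5 from 12.0% and 10.7% to 18.7% in both SAMD9 libraries. The sum was higher with SAMD9, so a share can fall with no fall in level, as for DUSP4. The cytoplasmic ERK enzymes DUSP6, DUSP7 and DUSP9 held 2.30% and 2.16% with empty vector and 0.976% and 1.04% with SAMD9. With all DUSP6 counts divided by its unshared exonic length, those shares were 2.93% and 2.67% against 1.25% and 1.34%. The joint share of these cytoplasmic enzymes was thus lower in both SAMD9 libraries, whereas that of DUSP5, which acts on ERK in the nucleus, was higher. The second set of shares uses the same counts, so it does not test how reads in the shared bases were assigned. The JNK and p38 enzymes held 14.4% and 13.2%, then 14.6% and 15.2%. Of the summed level of the 7 Sprouty and Spred genes, SPRED2 held 31.6% and 32.9% with empty vector and 37.4% and 39.0% with SAMD9, and SPRY4 held 21.5% and 20.5%, then 16.6% and 14.8%.

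**Figure D3:**
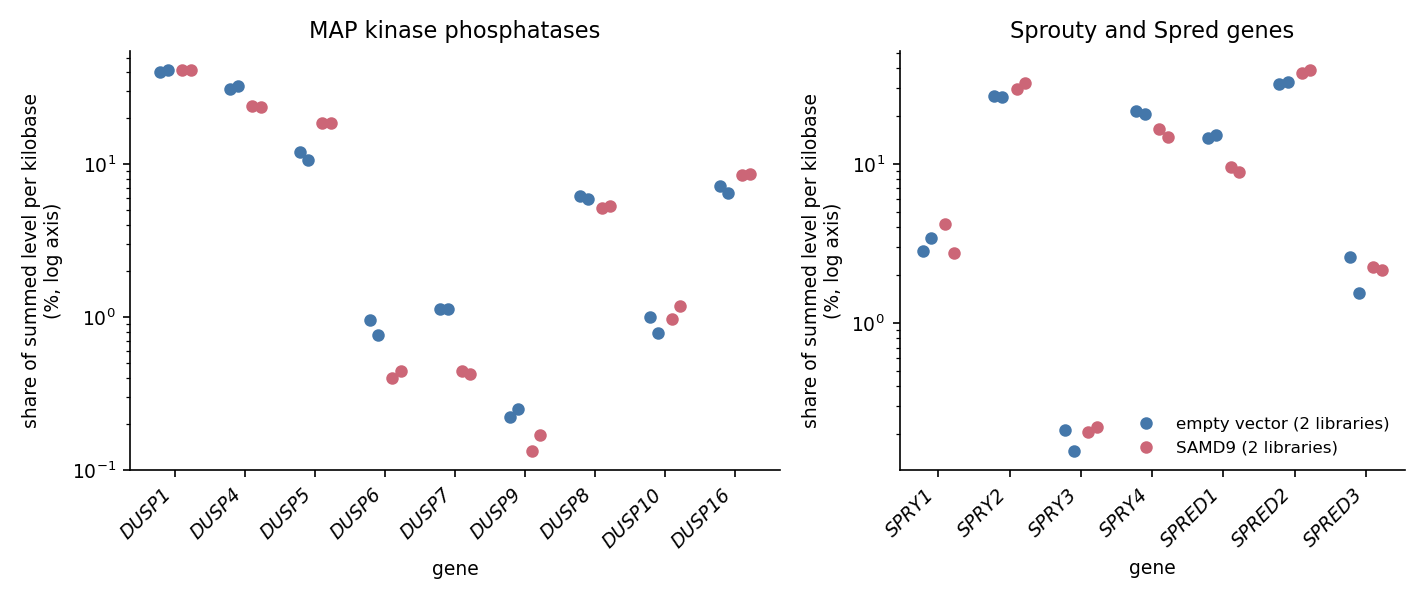
Share of the summed level per kilobase taken by each gene, in percent on a log axis, for the MAP kinase phosphatases (left, DUSP2 not drawn because 1 library had no counts) and the Sprouty and Spred genes (right), with 1 point per library. The shares of DUSP4, DUSP6, DUSP7, DUSP8, DUSP9, SPRY4 and SPRED1 are lower in both SAMD9 libraries, and those of DUSP5, DUSP16, SPRY2 and SPRED2 are higher. The summed levels were higher with SAMD9, so a share can fall while the level rises, as for DUSP8.

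Among the nearest relatives of the 10 genes, DUSP7 and SPRED1 fell. They were 1 of 3 other MAP kinase phosphatase genes tested (33.3%) and 1 of 4 other Sprouty and Spred genes tested (25%). Both shares were near the 27.5% of all genes tested that were called, and 15.3% of all genes were called higher. No relative was called higher by edgeR (1, SPRY1, at an unadjusted p below 0.05) or by DESeq2 (0 unadjusted). DUSP7, which like DUSP6 acts on ERK in the cytoplasm, had 15.8 ± 0.429 CPM with empty vector and 8.42 ± 0.195 with SAMD9 (SD, n = 2), or -0.91 on the log2 scale (SE 0.13, edgeR adjusted p = 1.6e-05). DUSP9 (-0.16, SE 0.37) and the catalytically inactive relative STYXL1 (0.13, SE 0.11) were not called, and DUSP2 had at most 8 counts in a library and was not tested. SPRED1, which like SPRED2 holds back Raf, fell from 48.1 ± 0.00229 to 36.4 ± 0.383 CPM (-0.40 on the log2 scale, SE 0.08, edgeR adjusted p = 0.00078). Both were lower under each of the 8 alternatives. SPRED2 over SPRED1 per kilobase went from 2.17 and 2.16 to 3.89 and 4.39, and SPRY2 over SPRY4 from 1.24 and 1.28 to 1.79 and 2.18. SPRY1 (0.44, SE 0.20), SPRY3 (0.49, SE 0.53) and SPRED3 (0.36, SE 0.31) were not called, but SPRY1 was called higher without SAMD9 replicate 2.

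Of the 21 atypical dual-specificity phosphatases listed, which mostly lack a MAP kinase docking domain, 15 were tested. Of these, 2 rose and 4 fell (40% called, against 27.5% of all genes tested). The median log2 fold change was 0.00299, and -0.19 under total-count scaling. DUSP14 fell by 0.48 (SE 0.11), DUSP18 rose by 0.77 (SE 0.20) and SSH1, a phosphatase of cofilin, fell by 0.25 (SE 0.07) on the log2 scale. Without either SAMD9 library, 1 rose (DUSP18) and 1 fell (DUSP14), and DUSP18 was not called without empty vector replicate 2.

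The genes of the kinase cascades that these phosphatases act on were called in a share near that of all genes (33.3% of the Ras to ERK list and 33.3% of the JNK and p38 list, against 27.5%). Among 21 Ras, Raf, MEK and ERK genes, 5 rose and 2 fell (median 0.04, and -0.14 under total-count scaling, where 9 fell), and MAPK3, which encodes an ERK, was not called with TMM (0.04, SE 0.11). Without SAMD9 replicate 1, 3 rose. The adaptor genes GAB1 and SHC1 rose by 0.97 (SE 0.17) and 0.40 (SE 0.06), and the phosphatase gene PTPN11, which promotes Ras activation, fell by 0.36 (SE 0.06).

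Among 27 genes of the JNK and p38 cascade, 3 rose and 6 fell (median -0.08, and -0.27 under total-count scaling), and the JNK and p38 genes MAPK8 (0.00463, SE 0.11) and MAPK14 (-0.08, SE 0.09) were not called. MAP3K8, which activates MEK downstream of inflammatory receptors, rose 5.49-fold, from 14.0 ± 0.470 to 76.9 ± 6.85 CPM (log2 fold change 2.46, SE 0.09, n = 2, edgeR adjusted p = 1.6e-15). MAP3K11 rose by 0.58 (SE 0.07) and MAP3K20, a kinase of the ribotoxic stress response, fell by 0.54 (SE 0.07). Under total-count scaling 15 genes of this list were lower, and without SAMD9 replicate 2, 1 was (MAP3K20).

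Genes listed as dependent on MEK and ERK for expression moved in both directions, and that dependence was not tested in these cells. Of 19 such genes, 7 rose and 5 fell (63.2% called, against 27.5% of all genes tested). The median log2 fold change was 0.17, against -0.02 with total-count scaling. The urokinase receptor gene PLAUR rose 9.84-fold (log2 fold change 3.30, SE 0.06), the cytokine gene LIF 2.07-fold (1.05, SE 0.06) and EMP1 1.84-fold (0.88, SE 0.10). The 5 that fell, named after their values were seen, were ETV1 (-0.95, SE 0.19), HMGA2 (-0.77, SE 0.11), ETV4 (-0.55, SE 0.09), EPHA2 (-0.22, SE 0.06) and PHLDA1 (-0.19, SE 0.07). ETV1 and ETV4 encode ETS factors of the PEA3 group, and ETV5 of the same group was at -0.13 (SE 0.08) and was not called. Without either SAMD9 library 3 fell, ETV1, ETV4 and HMGA2. PHLDA1 (edgeR adjusted p = 0.0442) was also not called with DESeq2, without the filter on low counts, with the replicate block or without empty vector replicate 1.

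Of 15 other negative regulators of receptor and Ras signalling, 1 rose and 4 fell (median -0.04, and -0.23 under total-count scaling, where 7 fell). The share called was 33.3%, near the 27.5% of all genes tested. ERRFI1, a feedback inhibitor of the EGF receptor, fell by 0.49 (SE 0.07) and RGS2 by 0.72 (SE 0.16), whereas the adaptor gene SH2B3 rose by 0.78 (SE 0.12). The other two that fell, named after their values were seen, were CBLB (-0.44, SE 0.14) and RASAL2 (-0.36, SE 0.09), and CBLB was not called with DESeq2 or without SAMD9 replicate 1. Without empty vector replicate 1, 2 rose (CBL and SH2B3) and 2 fell (ERRFI1 and RGS2), and without empty vector replicate 2 the rises were SH2B3 and PPP2R1A.

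**Figure D4:**
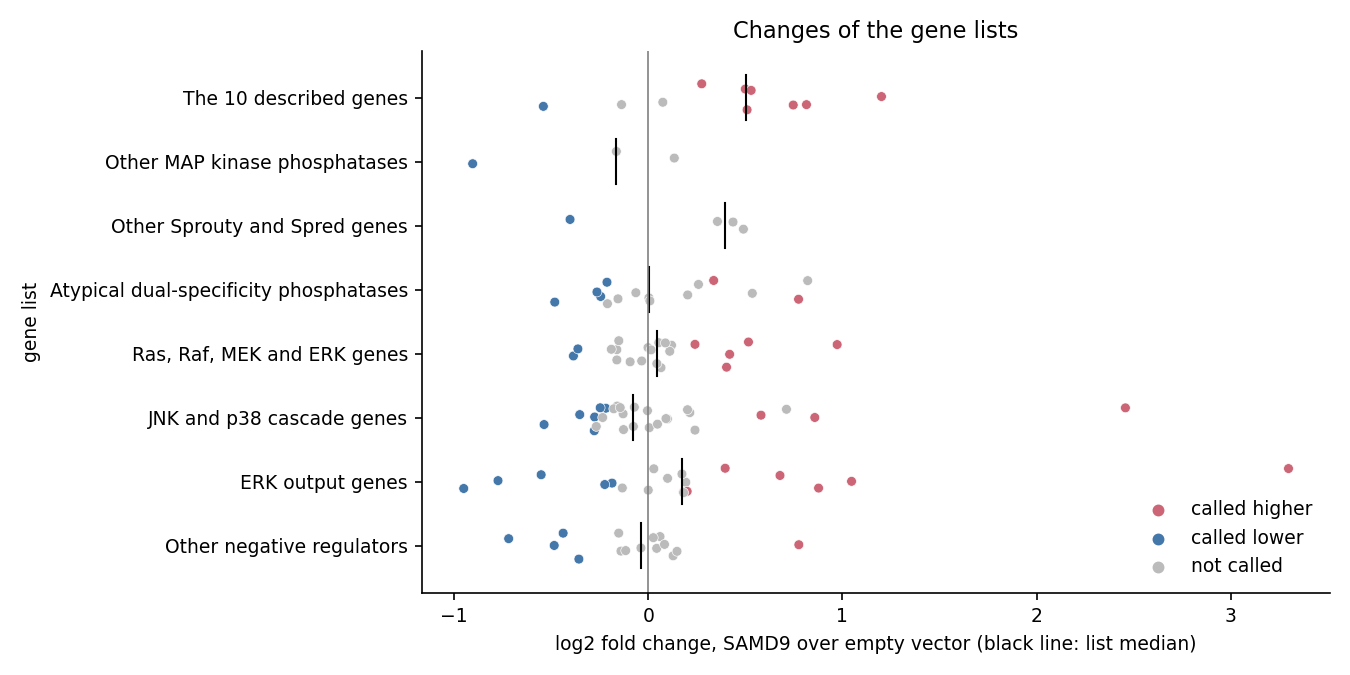
Log2 fold change of SAMD9 over empty vector for every tested gene of the 10 described and of 7 related lists, coloured by call (red higher, blue lower, grey not called), with a black line at each median. The described genes lie mostly to the right of 0, with a median of 0.50, and the related lists spread to both sides of 0.

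By the smallest distance between centred log2 profiles over the 4 libraries, among 13468 other genes with a mean of at least 1 log2 CPM, the genes most like DUSP5 were PNRC1 (log2 fold change 1.22), CXCL5 (1.17) and DNAJC15 (1.42). Those most like DUSP6 were ZNF747 (-0.52), ELMOD2 (-0.52) and MBTD1 (-0.49). With 4 libraries in 2 groups, such a likeness is mostly one of the size of change.

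The 3′ untranslated regions of the 10 genes had little in common in the pentamer AUUUA, a core of the AU-rich elements that shorten the life of many inducible RNAs. DUSP1 had 4 copies in 672 bases, or 5.95 per kilobase, a density above that of 94.9% of 13915 protein-coding genes tested, and DUSP10 had 3 copies (3.04 per kilobase). DUSP5, with the largest rise, had 0 copies in 1118 bases, and DUSP6 had 1 in 2022. The others lay between 1.51 per kilobase (DUSP4) and 2.56 (SPRY2), close to the median of 1.59 over all genes. These regions are the longest annotated for each gene in GENCODE release 29, and which ones A549 cells use was not tested.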

How the data were processed

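Each deposited file held 1 library's raw counts per gene, which the authors had also turned into CPM and RPKM. The deposited CPM equalled counts over the library total and the deposited RPKM equalled that CPM per kilobase, so only counts were used. The submitters' processing notes name GRCh38, bcl2fastq, STAR 2.5.1a, Subread and featureCounts 1.4.6-p5. Not given in the sources used here are their parameters, the annotation release and the strandedness. Among counts from 1 to 20, 72.9% were even, against 49.7% above 1000, as when both mates of a pair are counted.

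Of 58812 gene IDs, 54836 had a symbol in the gene name table and the rest took theirs from GENCODE release 29 where present, while DUSP13A and DUSP13B were not matched. Coordinates are the files'. Counts were tested with edgeR 4.0.16 (R 4.3.3): filterByExpr (minimum count 10, total 15), TMM factors of 1.07, 1.07, 0.941 and 0.932, and glmQLFTest of SAMD9 against empty vector with no covariate. SE is the absolute log2 fold change over the square root of F. The fit was tested on simulated data.

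The labels do not say whether replicates were separate cultures, so p-values cover just the variation among these libraries, possibly only technical. Replicates differed by more than the sampling noise of independent counts (chi-square per degree of freedom 9.35 and 5.00). How much of that comes from counting both mates of a pair was not tested. Alternatives were DESeq2 1.42.0, total-count scaling, no filter, a replicate block and leaving out each library. The members, lists and rules were chosen with earlier results of these data known. Named beside the 10 genes are SAMD9, the 3 genes of each list with the lowest p (all tested genes of lists of 4) and profile neighbours. The ERK and stress kinase genes MAPK3, MAPK8 and MAPK14, and ETV5, were added after their values were seen, as were the shares, ratios and AUUUA counts. Leaving out a library leaves a lone sample in 1 group, assumed to vary like the other.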

Additional observations from a re-analysis of the deposited data

How the results depend on the processing

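Of the 10 genes, 7 were called higher and 1 lower. The count of higher calls was 6 under total-count scaling and 6 to 8 on leaving out a library, and that of lower calls was 0 with DESeq2, 2 under total-count scaling and 0 to 1 on leaving out a library. At an unadjusted p below 0.05, 1 was lower in each analysis with a count of 0 (DESeq2, and edgeR without empty vector replicate 1 or SAMD9 replicate 1). DUSP4 reversed under total-count scaling, to -0.11. Over all genes, total-count scaling gave 1974 higher and 5653 lower, against 3038 and 2420, and leaving out a library gave 2291 to 3123 higher and 1466 (without SAMD9 replicate 2) to 2279 lower. With DESeq2, 1 atypical phosphatase was higher, 3 JNK and p38 genes were lower and 2 other negative regulators were higher. Under total-count scaling, 1 atypical phosphatase was higher, and 15 JNK and p38 genes, 9 Ras, Raf, MEK and ERK genes and 7 other negative regulators were lower. On leaving out a library, the ranges were 1 to 2 higher and 1 to 3 lower for atypical phosphatases, 3 to 5 lower for ERK output genes, 1 to 8 lower for JNK and p38 genes, 0 to 1 higher for other Sprouty and Spred genes, 1 to 2 higher and 2 to 4 lower for other negative regulators, and 3 to 6 higher for Ras, Raf, MEK and ERK genes. The causes were not tested. Same-numbered libraries did not deviate together (correlation 0.00415), and with the replicate number as a block 2914 genes were higher and 2330 lower, with the same 8 of the 10 genes called. DUSP6 and DUSP10 rest on 205 to 430 counts a library, the fewest among the 10 genes.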
